A study of Mus musculus with 11 samples.

Results

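The microRNAs described here are miR-10a, miR-10b, miR-196a and miR-196b, which are encoded within the mouse Hox gene clusters. They were found on the array as every plus-strand mouse spot of the series table whose annotation names mmu-miR-10a, mmu-miR-10b or mmu-miR-196 with any letter. This gave 4 miRNAs with 4 spots each, 16 of 1336 spots and 4 of 334 miRNAs. Mature miRNAs in total RNA were measured on 11 arrays. Normal mammary glands of late-pregnant female mice came from the strains FVB (2 arrays), Balb/C (3 arrays, Balbc in the labels) and FVB129B6 (3 arrays). Primary mammary tumors of C3(1)/Tag mice (3 arrays, C3TAg in the labels) were in the FVB strain and carried the SV40 T antigens under the C3(1) promoter of the rat prostatic steroid binding protein gene. No age was given for any group. Per the study's methods the tumors came from separate mice. For the glands nothing says so, and the titles of Balb/C replicates 2 and 3 name the left and right side of what may be the same mouse, so p-values between strains measure the spread between these samples, which may be technical.

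MicroRNAs are RNAs of about the length printed here that guide a repressor complex to messenger RNAs, chiefly through pairing of the seed, bases 2 to 8. The genes of the miR-10 and miR-196 families lie between or within the Hox genes, the homeobox transcription factors that set position along the body axis, and both families are known to repress some Hox messages. In breast tissue miR-10b has been studied most in relation to invasion and metastasis. miR-615 is another miRNA encoded in a Hox cluster. Whole glands and tumors hold several cell types, so that fewer cells of a type and less RNA per cell cannot be told apart.

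The mature sequences carry the identity of the 4 miRNAs, and are printed from RefSeq (GRCm38.p6) 5′ to 3′ with the seed in capitals. All 4 names matched a RefSeq entry. The first pair shares the seed ACCCUGU and no other mature mouse miRNA of that table had it; the second pair shares AGGUAGU, again with no other. miR-99a, miR-100 and let-7a are shown for comparison, since the seeds of the first pair of these resemble that of miR-10 and the let-7 seed GAGGUAG overlaps that of miR-196 by a shift of 1 base.
miR-10a: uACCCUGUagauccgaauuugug
miR-10b: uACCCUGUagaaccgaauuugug
miR-196a: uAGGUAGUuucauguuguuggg
miR-196b: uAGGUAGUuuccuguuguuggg
miR-99a: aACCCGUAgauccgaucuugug
miR-100: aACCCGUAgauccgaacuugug
let-7a: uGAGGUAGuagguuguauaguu
Counted from 1 at the 5′ end, miR-10b differed from miR-10a only by U12A over 23 bases, and miR-196b from miR-196a only by A12C over 22 bases.

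In GRCm38.p6, mature miR-10a lies at chr11:96317186-96317208 on the plus strand, inside the annotated span of Hoxb3 and with Hoxb4 as the next Hox gene, 992 bases from the hairpin. Mature miR-10b lies at chr2:74726074-74726096 on the plus strand, where the spans of Hoxd3 and Hoxd4 overlap. miR-196a has 2 genes that give the same mature RNA. One is at chr11:96265187-96265208, plus strand, between Hoxb13 and Hoxb9. The other is at chr15:102973365-102973386, plus strand, between Hoxc10 and Hoxc9. miR-196b lies at chr6:52230129-52230150 on the minus strand, between Hoxa9 and Hoxa10. The table used gives gene spans without exons, so exon and intron were not told apart.

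The parts of the 60-base probes that match the hairpins show how closely the pairs could be separated, with the base opposite position 12 of the mature RNA in capitals.
miR-10a probe: cacaaattcggAtctacagggta
miR-10b probe: acacaaattcggTtctacaggg
miR-196a probe: ccaacaacaTgaaactaccta
miR-196b probe: ccaacaacaGgaaactaccta
The miR-10b part left out 2 bases at the 5′ end of the RefSeq mature RNA. The whole probes of miR-10a and miR-10b were 4 edits apart, and the miR-10a probe was as close to that of miR-100. The miR-196a and miR-196b probes were 1 edit apart, while the next probe, of a let-7 miRNA, was 8 edits away. The array cannot show how much signal each member of a pair lent to the probe of the other, so the members of a pair are not independent measurements.

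Levels are given as log2 of the green signal minus the median of the array, averaged over the 4 spots. The scanner software marks spots that are well above background, and a miRNA with 2 or more of its 4 spots so marked is called above background on that array. In each fit 261 miRNAs met this on 3 or more arrays and were tested with limma. On the 8 gland arrays 209 to 262 of 334 miRNAs were above background, and on the 3 tumor arrays 15 to 64. The median spot was dimmest on the tumor arrays, at 125 to 170 scanner units. It read 188.5 and 245.5 in FVB, and 508 to 671.5 in the other glands. No spot was saturated. All glands were hybridised on 1 slide and all tumors on another, scanned with another version of the software, so slide and tissue cannot be told apart. The FVB arrays also filled a slide column of their own. All values of both miR-196 members on the tumor arrays lay at background, and both pass the filter on low values in some comparisons through the glands alone. miR-196a did so only through the FVB129B6 arrays.

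**Figure D1:**
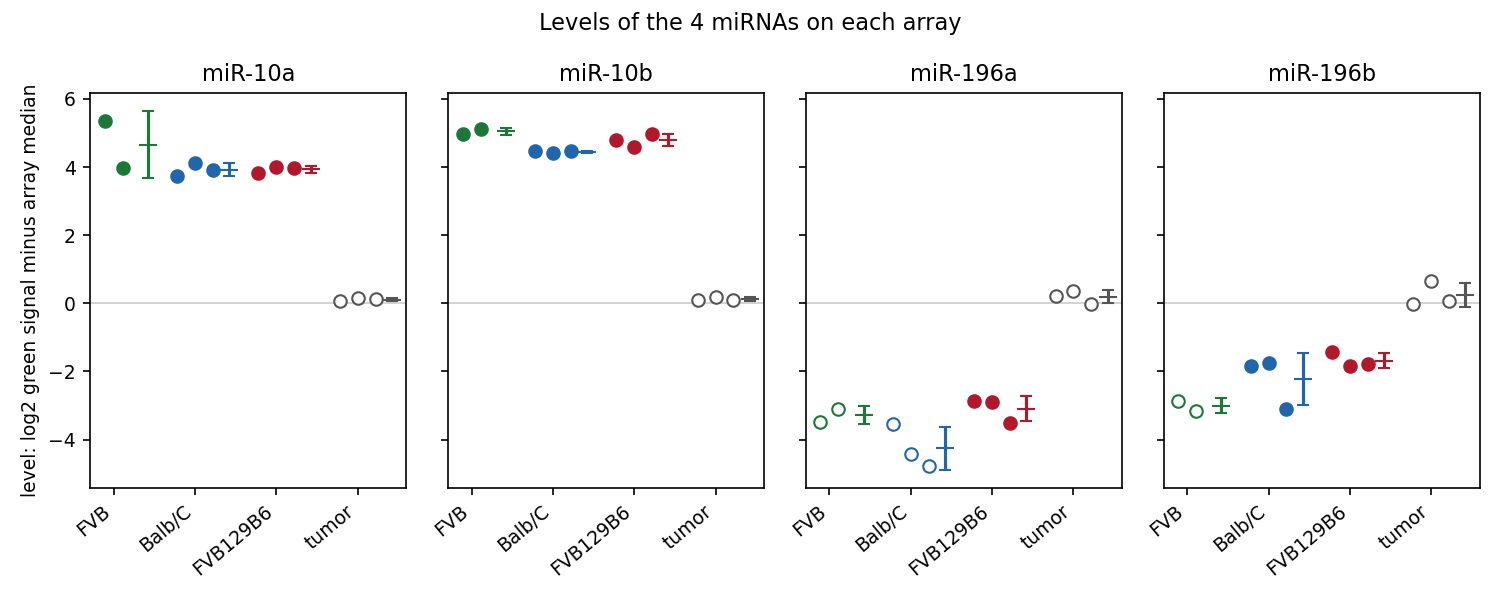
Level of each miRNA on each array (log2 green signal minus array median), in replicate order within each group. Filled points were well above background and open points were not, and bars are the group mean with SD (n = 2 for FVB, 3 for the others). miR-10a and miR-10b sit between 3.74 and 5.35 on the 8 glands and are open in all 3 tumors, and miR-196a is filled only in FVB129B6. Heights of different miRNAs come from different probes and are not to be compared, and the open points near 0 in the tumors are background.

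miR-10a and miR-10b were bright in the pregnant gland and not detected above background in the C3(1)/Tag tumors. All 32 gland spots of each miRNA were well above background and none of the 12 tumor spots was. miR-10a read a median of 9900 and 3120 scanner units over its spots in FVB, 7880 to 8715 in Balb/C and 7475 to 10950 in FVB129B6, against 132.5 to 163.5 in the tumors. miR-10b read 7870 and 6620 in FVB, 10750 to 12700 in Balb/C and 14700 to 16900 in FVB129B6, against 120 to 174.5 in the tumors. The tumor spots of both lay between 94.6 and 297. The 16 spots of random 22-base sequences read between 89.9 and 378 on the same tumor arrays, so over the 3 arrays the tumor values of miR-10a and miR-10b lay within the range of probes with no designed target. On the gland arrays the random spots read 12.9 to 50.2.

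**Figure D2:**
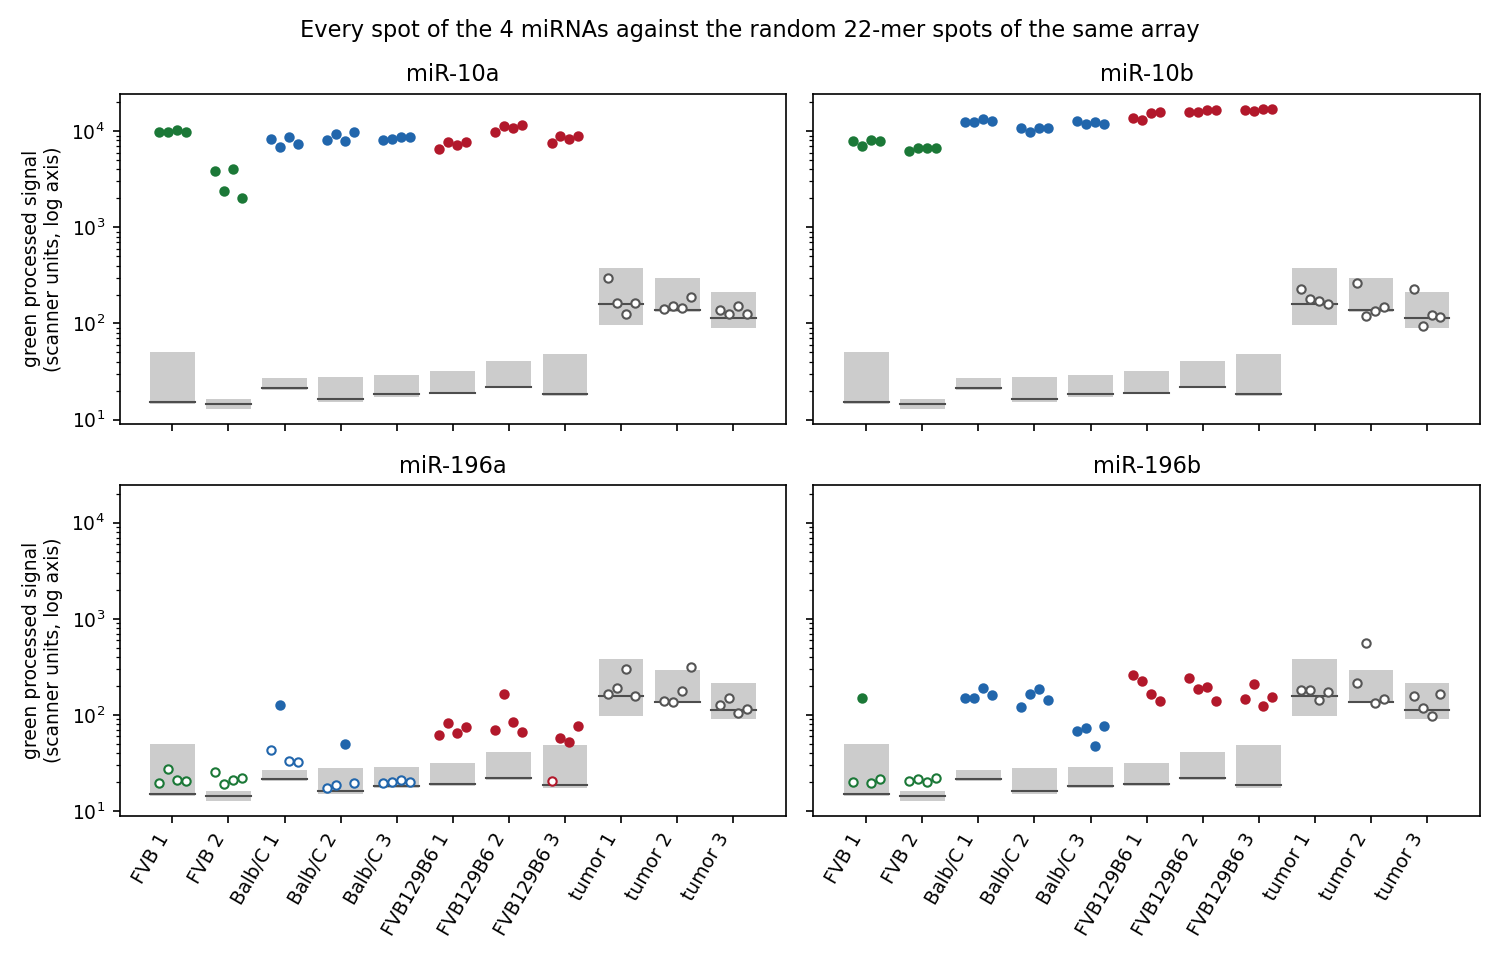
Green processed signal of every spot of the 4 miRNAs (points, log axis, scanner units) on each array, with the range (grey) and median (line) of the 16 random 22-base spots of that array. Filled points were well above background. miR-10a and miR-10b stand far above the grey ranges on all 8 glands and in or close to them on the tumors, where miR-10b has 1 spot just below the range of its array (120, replicate 2) and 1 just above (226, replicate 3). miR-196b stands above them in Balb/C and FVB129B6. Elsewhere 1 spot of FVB replicate 1 (152, above background) and 1 tumor spot (557, not above background) stand clear of them. The spots of FVB replicate 2 (20.3 to 22, not above background) lie a little above the range of their array (12.9 to 16.2).

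Against the mean of the 3 strains, the tumor level of miR-10b was lower by a log2 difference of -4.64 (SE 0.14, limma adjusted p = 2.58e-10), and that of miR-10a by -4.06 (SE 0.25, limma adjusted p = 5.70e-08). With no tumor array above background, only bounds hold for the fold. miR-10b was at least 7.80-fold and miR-10a at least 5.18-fold higher in the glands. These bounds rest on the scaling. With background correction by normexp they were at least 12.8-fold and 8.47-fold. Scaled on the miRNAs above background on all arrays, miR-10b was at least 1.35-fold higher and no fold could be given for miR-10a. This scaling rests on at most 15 miRNAs, the number above background on tumor replicate 2. With the 75th percentile or quantile normalization no fold could be given for either over all glands. Both miRNAs passed the filter on low values through the glands alone, so the test sets gland signal against the background of the tumor arrays and its outcome adds nothing to the bounds. The differences were -6.14 to -1.31 for miR-10b and -5.56 to -0.59 for miR-10a over the 25 alternatives that could fit them. Of all tested miRNAs 90.4% were called in this comparison, 52.5% as lower, and the 2 miR-10 members among the lower ones are to be read against that. By level, both miR-196 members were called higher in the tumors, which is the background of those arrays and no measured rise. The split of 99 higher and 137 lower miRNAs became 172 and 70 with the 75th percentile, where the median difference of all miRNAs moved from -0.83 to 2.14. Relative to the median of all tested miRNAs, miR-10a stood at -3.23 to -2.47 and miR-10b at -3.96 to -2.98 over the 5 ways of scaling. The array median, the 75th percentile and the miRNAs above background shift all miRNAs of an array alike. They therefore give the same distance from the median by construction (-3.23 and -3.80). Since the tumor values were background, these distances add nothing to the bounds.

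Most related miRNAs had lower levels in the tumors at this scaling. Of the 5 miRNAs related to miR-10 in sequence (miR-99a, miR-99b, miR-100, miR-125a and miR-125b), all 5 were called lower, with a median difference of -4.20 beside -0.83 over all miRNAs tested. Of all miRNAs tested 52.5% were called lower. miR-99a, miR-99b and miR-100 were not above background on any tumor array, so that their differences are against background. miR-100 had levels of -0.21 to 0.17 there and 4.12 to 4.51 on the glands. miR-125a was above background on 2 of 3 tumor arrays and miR-125b on 1. With the 75th percentile, which moves every tumor difference up by 2.98, miR-125a (0.88) and miR-99b (0.63) turned above 0. All 9 members of the let-7 family, a regulator of growth and differentiation, were called lower (median -2.93), and 4 of them were above background on every tumor array. let-7f, let-7g and miR-98 were not above background on any tumor array, so that their differences are against background. The direction of the let-7 family rests on the scaling. With the 75th percentile 5 of the 9 turned above 0 (let-7b, let-7c, let-7d, let-7e and miR-98) and the median was 0.048. let-7b, at -0.70, was above the median of all miRNAs at either scaling. miR-615 was not above background on any tumor array, so that no direction is given for it.

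Markers of several cell types of the gland were called lower in the tumors too. The 7 epithelial miRNAs (miR-200a, miR-200b, miR-200c, miR-141, miR-429, miR-203, miR-205), which mark the cells that line the ducts and alveoli, were all called lower (median -4.26). Their mean level per array was 4.99 to 6.55 in the glands and 0.97 to 1.46 in the tumors. All 5 mesenchymal and smooth muscle markers (miR-143, miR-145, miR-199a, miR-199b, miR-214) were called lower (median -4.23), with a mean level of 5.83 to 6.62 in the glands and 0.91 to 1.75 in the tumors. So were 4 of 4 skeletal muscle markers (median -4.12) and 5 of 6 blood and lymphoid markers (median -2.69). These counts stand beside 52.5% of all miRNAs tested called lower, with a median of -0.83. On no tumor array were 3 of the epithelial, 2 of the mesenchymal, 2 of the muscle and 4 of the blood markers above background, and for these the difference is against background. With the 75th percentile 0 of 7 epithelial, 1 of 5 mesenchymal (miR-214), 1 of 4 muscle (miR-206) and 4 of 6 blood markers (miR-144, miR-150, miR-223 and miR-486) turned above 0. The endothelial miR-126-5p was not above background on any tumor array. The part of these cell types in the miR-10 result was not tested.

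Among the gland strains, miR-10b varied little and was lowest in Balb/C. Its levels were 4.97 and 5.12 in FVB, 4.46, 4.41 and 4.46 in Balb/C, and 4.80, 4.60 and 4.96 in FVB129B6. The Balb/C arrays lay below all arrays of the other strains, while the FVB and FVB129B6 arrays came close to each other without overlapping. Balb/C minus FVB was -0.60 (SE 0.17, limma adjusted p = 0.0257). It was the 1 member called lower of 4, beside 32.2% of all miRNAs tested called lower and 37.9% called at all. No member was called higher, beside 5.75% of all miRNAs. The median difference over all tested miRNAs was -0.48, so that miR-10b stood only -0.12 from it. On the unscaled signal the order was the other way round, with a difference of 0.75 (limma adjusted p = 0.0101), and it was 0.29 with normexp. The difference shrank to -0.17 with the 75th percentile, -0.15 with scaling on miRNAs above background and -0.14 with quantile normalization, and passed the test under none of the 3. The call was also lost in 5 of the 8 fits that left out 1 array, namely each Balb/C array, FVB replicate 2 or FVB129B6 replicate 1 (-0.61 to -0.53). It was lost as well with the 2 Balb/C arrays that may share a mouse averaged (-0.60, limma adjusted p = 0.0549). FVB129B6 minus FVB was -0.26 (SE 0.17, limma adjusted p = 0.255), and it was above 0 under the other 4 ways of scaling, up to 0.49 with normexp, where it passed the test (limma adjusted p = 0.0228). On the unscaled signal it was 1.15 and passed as well (limma adjusted p = 0.00147). Balb/C minus FVB129B6 was -0.34 (SE 0.15, limma adjusted p = 0.246) and stayed between -0.44 and -0.19 under all alternatives, without passing the test.

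miR-10a did not differ between strains beyond the spread of its arrays. Its levels were 5.35 and 3.96 in FVB, 3.74, 4.11 and 3.91 in Balb/C, and 3.81, 4.01 and 3.97 in FVB129B6. FVB replicate 1 stood above all others, while FVB replicate 2 lay among the arrays of the other strains. Balb/C minus FVB was -0.73 (SE 0.37, limma adjusted p = 0.148) and FVB129B6 minus FVB was -0.73 (SE 0.37, limma adjusted p = 0.150). Without FVB replicate 2 these became -1.43 and -1.42 and passed the test (limma adjusted p = 0.00721 and 0.00708), and without FVB replicate 1 they became -0.040 and -0.032. Both turned above 0 on the unscaled signal (0.62 and 0.69) and with normexp (0.14 and 0.036). Balb/C minus FVB129B6 was -0.0071 (SE 0.33, limma adjusted p = 0.995). On FVB replicate 2 the 4 spots of miR-10a ran from 2010 to 4020, with an SD of 0.50 on the log2 scale, against 0.03 on FVB replicate 1 and at most 0.16 on any other gland array, so the value of this array was the least precise of the 8.

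The difference between the miR-10b and miR-10a levels on an array followed the same 2 FVB arrays. It was -0.37 and 1.16 in FVB, 0.72, 0.30 and 0.55 in Balb/C, and 0.99, 0.59 and 1.00 in FVB129B6 (log2). The FVB arrays spanned the range of the other 6, and an exact permutation test over the 3 strains found no difference (sum of squares between strains, p = 0.604, 560 relabelings). With 2 FVB arrays this far apart, the test could not show that the strains were alike. This comparison was chosen after the values were seen. Across the 8 glands miR-10a and miR-10b correlated with r = 0.35, a description over arrays that share a slide.

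The miRNAs most like miR-10a and miR-10b over the 8 glands were not the same. Of 203 other miRNAs above background on all glands, miR-805 (r = 0.97), miR-30e (r = 0.97) and miR-365 (r = 0.95) ran most like miR-10a, and miR-10b itself came at rank 99. These 3 shared with miR-10a a high level on FVB replicate 1. miR-805 stood at 7.13 there and at 4.65 to 5.17 on the other glands. Without FVB replicate 1 the correlations with miR-10a were 0.43, 0.36 and -0.038. The miRNAs most like miR-10b were miR-152 (r = 0.97), miR-187 (r = 0.96) and miR-101b (r = 0.95), and these were 0.94, 0.96 and 0.90 over the 6 glands of Balb/C and FVB129B6. miR-152 was at 4.90 and 5.03 in FVB, 3.69 to 4.02 in Balb/C and 4.36 to 4.69 in FVB129B6, which is the order of miR-10b.

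**Figure D3:**
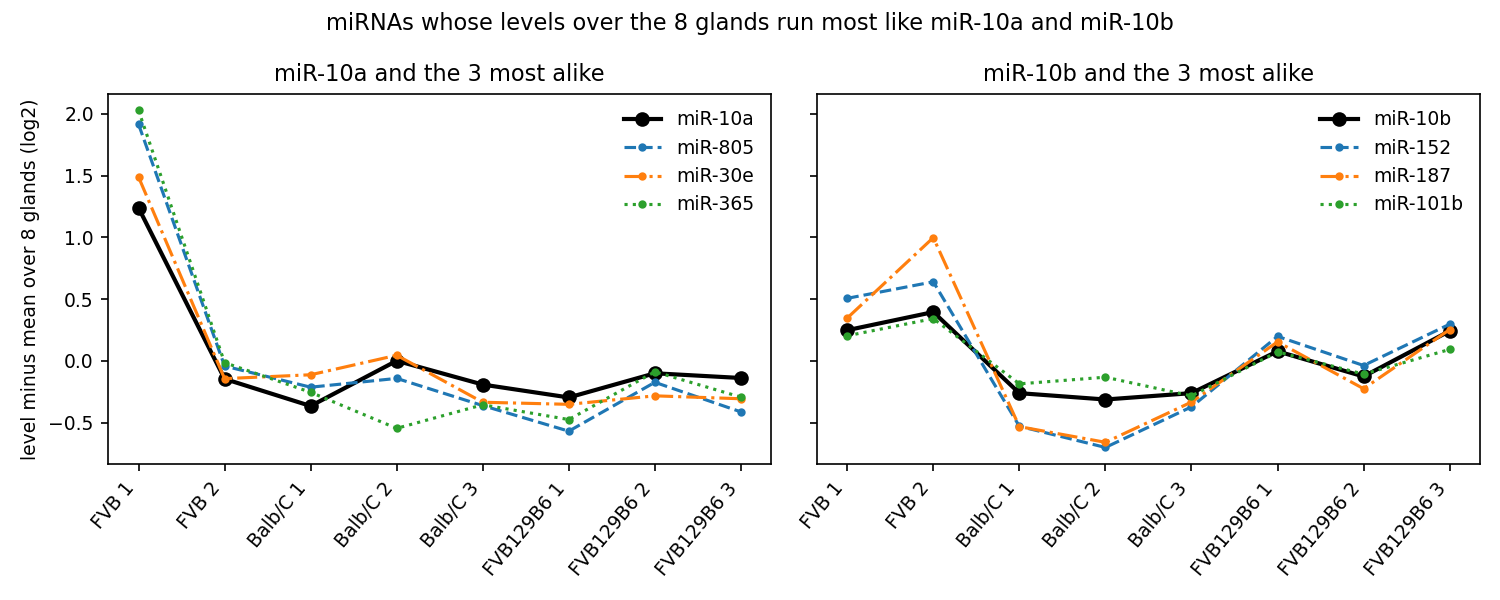
Levels over the 8 glands, each minus its own mean over them (log2), of miR-10a (left) and miR-10b (right) in black with the 3 miRNAs most correlated with each. The miR-10a group is set by FVB replicate 1, and the miR-10b group is lowest on the 3 Balb/C arrays.

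miR-196b was dim, and was above background in Balb/C and FVB129B6 glands but not in FVB glands. All 12 of its spots were well above background in FVB129B6 and all 12 in Balb/C, against 1 of 8 in FVB. Its spots read medians of 196.5, 191.5 and 150 in FVB129B6, 157, 154.5 and 70.15 in Balb/C, and 21.0 and 21.05 in FVB. The 1 bright FVB spot read 152 on replicate 1, where the other spots of that array were at background. Its levels were -1.43, -1.83 and -1.79 in FVB129B6, -1.84, -1.74 and -3.10 in Balb/C, and -2.85 and -3.16 in FVB. The FVB129B6 arrays lay above both FVB arrays, whereas Balb/C replicate 3 fell between the FVB arrays.

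FVB129B6 minus FVB was 1.32 for miR-196b (SE 0.40, limma adjusted p = 0.0334), at least 2.21-fold higher in FVB129B6. miR-196b passed the filter on low values through Balb/C and FVB129B6 alone. Tests against FVB therefore set signal against the background of the FVB arrays, and their outcome adds nothing to the bounds. miR-196b was the 1 member called higher of 4, beside 8.05% of all miRNAs called higher and 39.5% called in either direction. No member was called lower, beside 31.4%. The bound was at least 2.58-fold to 3.18-fold with the 75th percentile, quantile normalization or scaling on miRNAs above background, and the difference passed the test under each. With normexp, which adds an offset that flattens dim spots, the difference was -0.13 and no fold could be given. The call was lost in 5 of the 8 fits that left out 1 array, namely each FVB129B6 and each FVB array (1.17 to 1.48, limma adjusted p up to 0.144). Balb/C minus FVB was 0.78 (SE 0.40, limma adjusted p = 0.155), at least 1.52-fold, and -0.26 with normexp. It passed the test without Balb/C replicate 3 (1.22, limma adjusted p = 0.0166), with the 2 Balb/C arrays that may share a mouse averaged (0.87, limma adjusted p = 0.0466) and with the median of spots (1.15, limma adjusted p = 0.0474). Balb/C minus FVB129B6 was -0.54 (SE 0.36, limma adjusted p = 0.447), and -0.11 without Balb/C replicate 3.

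miR-196a was above background only in FVB129B6, on 3 of 3 arrays with 11 of 12 spots. On FVB129B6 replicate 3 its spots read 20.5 to 77.6. The random 22-base spots of that array read up to 48.7, and 2 of 16 were also marked above background in green. On FVB replicate 1 likewise 2 of 16 random spots were marked (highest 50.2), and on the other arrays none was. In Balb/C 2 of 12 spots and in FVB none of 8 were above background. The spot medians were 70.2, 76.7 and 55.05 in FVB129B6, 38.55, 19.1 and 20.05 in Balb/C, and 20.8 and 21.75 in FVB. All 3 medians of FVB129B6 were above all others. By level, however, FVB129B6 (-2.88, -2.91 and -3.52) overlapped FVB (-3.48 and -3.10), because a lower array median is subtracted on the FVB arrays. Balb/C lay at -3.55, -4.42 and -4.79. The FVB129B6 level was at least 1.98-fold that of Balb/C, with a Balb/C minus FVB129B6 difference of -1.15 (SE 0.34, limma adjusted p = 0.111) that did not pass the test. It passed without Balb/C replicate 1 (-1.504, limma adjusted p = 0.0189) and with the median of spots (-1.38, limma adjusted p = 0.0316). miR-196a passed the filter through the FVB129B6 arrays alone. Tests against Balb/C or FVB therefore set FVB129B6 signal against background, and their outcome adds nothing to the bound. This bound was 1.05-fold with normexp. None of the 4 members was called between Balb/C and FVB129B6, beside 3.45% of all miRNAs (1.15% higher and 2.3% lower). FVB129B6 minus FVB was 0.19 (SE 0.38, limma adjusted p = 0.707), and no fold could be given. It was -0.43 with normexp, which passed the test (limma adjusted p = 0.0170), and 1.60 on the unscaled signal, which passed as well (limma adjusted p = 0.0100). No fold is given between Balb/C and FVB, where miR-196a was not above background in either.

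Array brightness and skeletal muscle miRNAs, like miR-196b, were lower in FVB than in the other strains. The FVB arrays, where both miR-196 members were at background, were also the dimmest of the glands. The 4 muscle miRNAs measured (miR-1, miR-206, miR-133a* and miR-133b), which are made in skeletal muscle, were all called higher in Balb/C and in FVB129B6 than in FVB, by medians of 4.97 and 3.83. Of all miRNAs tested 5.75% and 8.05% were called higher in these comparisons. The mean level of the 4 muscle miRNAs was 0.68 and 2.90 in FVB, 6.23 to 7.10 in Balb/C and 5.69 to 5.88 in FVB129B6. All 4 were above background on every gland array. Between Balb/C and FVB129B6 no muscle miRNA was called, and their mean level was highest in Balb/C. miR-196a was at background in Balb/C and above it in FVB129B6, and miR-196b was above background in both. The median spot read 508 to 583 on the Balb/C arrays and 520.5, 671.5 and 537 on the FVB129B6 arrays. The part of brightness and of muscle in the difference of miR-196b from FVB was not tested. Of the 6 blood and lymphoid miRNAs measured (miR-451, miR-144, miR-486, miR-142-5p, miR-223, miR-150), 1 was called lower in Balb/C and 3 in FVB129B6 than in FVB, and miR-486 was higher in Balb/C than in FVB129B6. Their mean level was 4.66 and 4.75 in FVB, 3.56 to 5.47 in Balb/C and 3.13 to 3.59 in FVB129B6. The highest Balb/C mean was that of replicate 2. There miR-142-5p stood at 7.57 and miR-150 at 6.90. On Balb/C replicates 1 and 3 miR-142-5p stood at 3.78 and 3.85, and miR-150 at 2.48 and 2.21. The other blood and lymphoid miRNAs did not stand out on replicate 2 to that extent. Of the 7 epithelial miRNAs, miR-200c and miR-203 were called lower in Balb/C than in FVB, and no mesenchymal or endothelial marker was called between strains. Of all miRNAs tested 32.2% were called lower in Balb/C than in FVB, and 31.4% in FVB129B6 than in FVB.

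None of the miRNAs related to the 4 in sequence or in place was called higher than in FVB. Of the let-7 family 8 of 9 were called lower in Balb/C and 7 of 9 in FVB129B6 than in FVB, with medians of -0.79 and -0.82 beside -0.48 and -0.39 over all miRNAs, and none was called between Balb/C and FVB129B6. Against FVB, 32.2% of all miRNAs were called lower in Balb/C and 31.4% in FVB129B6, and 5.75% and 8.05% higher. Of the 5 miR-10 relatives, miR-125a (-1.29 and -1.42) and miR-99b (-0.96 and -0.85) were called lower in Balb/C and in FVB129B6 than in FVB and the other 3 were not. miR-615 was above background on all glands and was called lower in both, by -0.96 (SE 0.20, limma adjusted p = 0.0109) and -0.89 (SE 0.20, limma adjusted p = 0.0112). Its levels were -0.95 and -1.06 in FVB and -2.12 to -1.68 on the other 6 glands, with no overlap at this scaling. The median spot subtracted was dimmer on the FVB arrays (188.5 and 245.5 scanner units) than on the other glands (508 to 671.5). The differences of miR-615, the let-7 family and the miR-10 relatives from FVB are given at this scaling only, so their calls and order depend on it. Which way most miRNAs differed from FVB rested on the scaling. The 15 higher and 84 lower in Balb/C became 31 and 16 with the 75th percentile, and the 21 higher and 82 lower in FVB129B6 became 40 and 43.

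**Figure D4:**
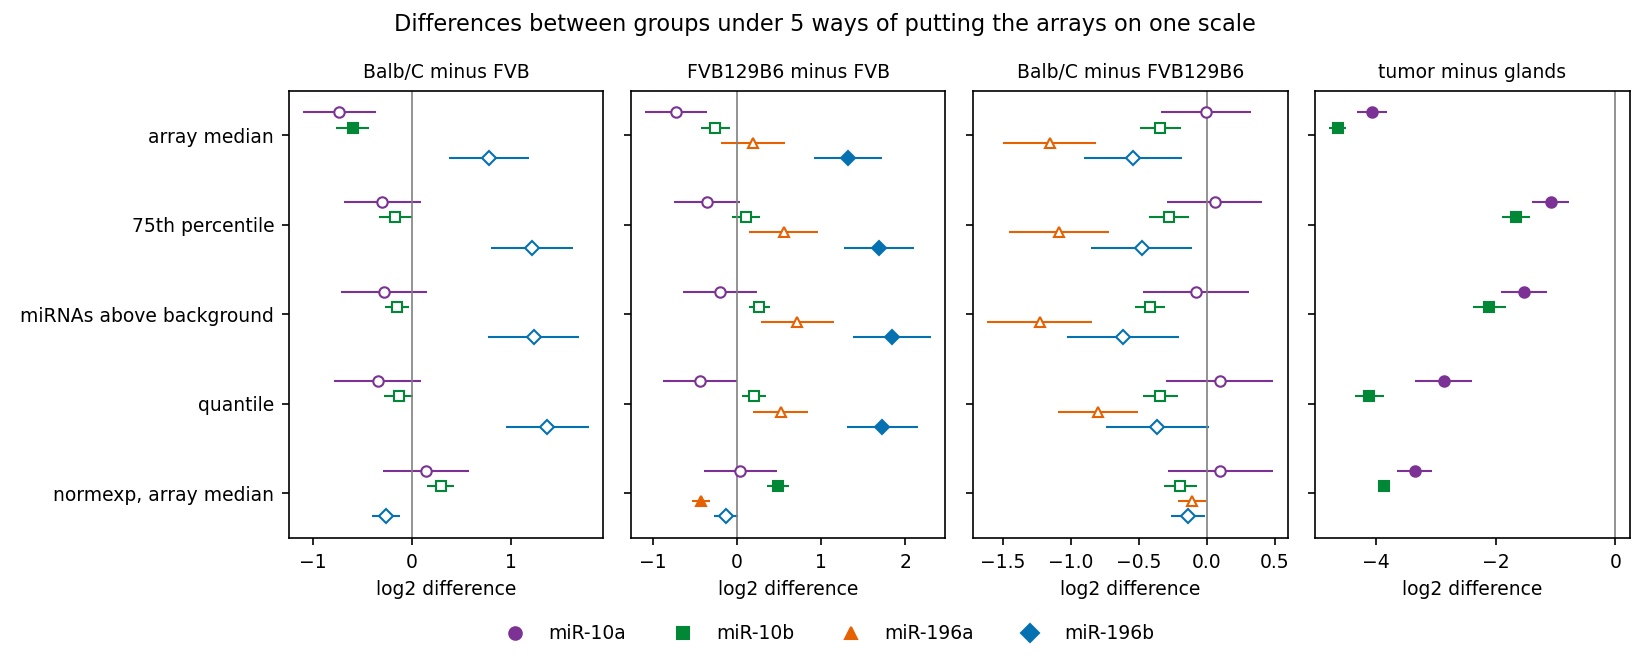
Log2 differences of the members (points, with SE) in each comparison, by the way the arrays were put on one scale; filled points passed the limma test at an adjusted p of 0.05. miR-196a is left out between Balb/C and FVB, where both groups were at background. Both miR-196 members are left out of the tumor comparison, where the tumor values were background. miR-196b is right of 0 against FVB in all but normexp, miR-10b changes side against FVB, and both miR-10 members are left of 0 in tumors throughout.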

How the data were processed

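Total RNA was dye-labelled at its ends and hybridised to custom 2-colour miRNA arrays, and per the file headers the deposited files hold the green and red processed intensity of each spot after background subtraction by the scanner software. The table of the series, deposited by the authors, holds log2 values that equal the log2 green intensity after a constant per array (SD of the difference 0). What the red channel held was not given in the sources used here. Other deposited columns used were spot annotation and flags.

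Here the green intensity was taken as log2, spots marked as outliers were left out, the median over the 1336 mouse spots was subtracted per array, and spots were averaged. A miRNA was tested when 50% of its spots were well above background on at least 3 arrays. Groups came from the labels. limma 3.58.1 (R 4.3.3) was fitted by group, over 8 glands for the strains and over 11 arrays for the tumors, with Benjamini-Hochberg adjustment over 261 miRNAs at a threshold of 0.05. With few arrays, their number limits the precision. Bounds compare the brighter group with the lowest signal called above background. In data simulated on the 261 miRNAs, 50 of them were changed, in 1 run per setting with independent normal noise. For Balb/C against FVB 60% of changes of 1 log2 unit and 86% of changes of 2 were recovered, with 1 and 4 false calls. For the tumors 78% and 98% were recovered, with 2 and 2 false calls. Such noise does not copy the background that dim miRNAs such as miR-196a and miR-196b sit on.

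The members and lists were chosen with earlier results of these data known. All members are named, and for each miRNA above background on all 8 glands the 3 most correlated ones. miR-133a, miR-142-3p, miR-199a* and miR-126-3p, named in the lists, were not analysed here. Alternatives were other scalings, background correction, filters, spot summaries, green over red, each array left out, the replicate number as a block, averaged Balb/C arrays and other sets of arrays. Figures were drawn in Python.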

Additional observations from a re-analysis of the deposited data

Results flagged for a closer look

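The red channel, which no comparison above uses, read both miR-196 probes above background on all 8 glands. For miR-196a this held on 5 gland arrays where the green channel was not above background, and for miR-196b on 2, both FVB. The random 22-base probes were above background in red on few spots, at most 2 of 16 on any array. The red spot medians of miR-196a were 113 and 225 in FVB, 249 to 396.5 in Balb/C and 357.5 to 421.5 in FVB129B6, and those of miR-196b were 198 and 270, 316 to 484.5 and 507 to 735.5. What was labelled in red is not known here, so these values are not assigned to a strain.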

How the results depend on the processing

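Of 292 recomputed member differences, 245 had the same sign and the same call, 16 lost the call, 9 gained it and 22 changed sign. The cause of a change was not tested, except that the looser or stricter filter changes how many miRNAs are tested. For Balb/C minus FVB, miR-10b was -0.17 (75th percentile), -0.15 (miRNAs above background), -0.14 (quantile), 0.75 (no scaling), 0.29 (normexp), -0.37 (green over red) and -0.60 (2 Balb/C arrays averaged, call lost), and -0.67 to -0.53 with each array left out. miR-10a was 0.62 (no scaling) and 0.14 (normexp), and -1.43 to -0.040 with each array left out. miR-196b was 2.13 (no scaling), 1.15 (median of spots) and 0.87 (2 Balb/C arrays averaged), each gaining the call, and -0.26 (normexp), and 0.53 to 1.22 with each array left out. The 99 miRNAs called became 47 (75th percentile), 54 (quantile), 151 (no scaling), 65 (green over red), 178 (no filter) and 65 (all 11 arrays), and 76 to 101 with each array left out. For FVB129B6 minus FVB, miR-10b was 0.11 (75th percentile), 0.26 (miRNAs above background), 0.21 (quantile), 1.15 (no scaling) and 0.49 (normexp), and -0.35 to -0.16 with each array left out. miR-10a was 0.69 (no scaling) and 0.036 (normexp), and -1.42 to -0.032 with each array left out. miR-196a was 1.60 (no scaling), -0.27 (dim levels raised to the floor) and -0.43 (normexp), and miR-196b was -0.13 (normexp) and 1.27 (green over red), and 1.17 to 1.48 with each array left out. The 103 miRNAs called became 179 (no scaling), 39 (green over red) and 191 (no filter), and 71, without FVB129B6 replicate 1, to 110. For Balb/C minus FVB129B6, miR-10a was 0.060 (75th percentile), 0.095 (quantile), 0.10 (normexp) and 0.077 (green over red), and -0.10 to 0.083 with each array left out, and miR-196a was -1.38 (median of spots, call gained), and -1.504, where it gained the call, to -0.89 with each array left out, and miR-196b was -0.79 to -0.11 with each array left out. The 9 miRNAs called became 5 (miRNAs above background), 5 (quantile), 0 (normexp in limma, with 49 at an unadjusted p under 0.05), 4 (green over red), 0 (limma, above background on every array, with 32 at an unadjusted p under 0.05) and 17 (all 11 arrays), and 0 to 16 with each array left out. In limma the lowest count came without FVB129B6 replicate 2, Balb/C replicate 2 or FVB replicate 2 (0 each, where 41, 36 and 65 had an unadjusted p under 0.05). The highest came when Balb/C replicate 1 was left out (16). For the tumors the 236 called became 13 where only miRNAs above background on every array were tested, and 224 to 235 with each array left out. For the tumors the filter on every array could test at most 15 miRNAs, the number above background on tumor replicate 2. Where an FVB array was left out, the lone FVB array was assumed to vary like the other groups. miR-196a could not be tested without any of the FVB129B6 arrays.

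The numbers of the replicates were not taken as pairs. Deviations of same-numbered arrays from their group means had a mean r of 0.04 over 15 pairs, and -0.02 over 30 pairs with different numbers. Deviations within a group cancel out, so both sets of pairs depend on each other. This check therefore cannot decide whether the numbers pair arrays. With the replicate block, 14 miRNAs were called in Balb/C minus FVB129B6, and no member's call changed.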
